A study of Harpegnathos saltator with 22 samples.

Results

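Ovaries of workers that had received siRNA against Kr-h1 (4 ants) were set against ovaries of gamergates that had received the same siRNA (7 ants), in the ant Harpegnathos saltator. These are 11 of the 22 libraries of the series. The other 11 came from control workers (5 ants) and control gamergates (6 ants), which had received siRNA against GFP, spelled GRP in the treatment text. All 4 groups, controls included, were labelled mature and had been injected into the head, below the antennae, with dicer-substrate siRNA in glucose and a transfection reagent. Ovaries were dissected 24 h later, and polyadenylated RNA of the ovaries of 1 ant made 1 strand-specific library. The labels give no age, colony or follicle stage.

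The files used here hold no test of Kr-h1 workers against Kr-h1 gamergates. For each gene, the log2 ratio of workers to gamergates after knockdown was therefore built from the authors' deposited table, as the control caste ratio plus the worker knockdown ratio minus the gamergate knockdown ratio. The 2 control groups drop out of this sum, which leaves the ratio of the 2 Kr-h1 groups. A positive value means higher in workers. Of 13693 genes, 8313 (60.7%) had a mean normalized count of at least 50 in all 3 deposited comparisons. These genes were analysed, and 3673 of them have a descriptive symbol in RefSeq.

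Kr-h1 (Krüppel homolog 1) is a zinc-finger transcription factor that juvenile hormone induces and that acts with the ecdysone pathway. In the Harpegnathos brain it is known for keeping worker and gamergate neurons apart in their gene expression. Gamergates are workers that mate, lay eggs and have active ovaries, while the ovaries of other workers stay largely inactive. An insect ovary holds germline cells, among them oocytes and nurse cells, inside a layer of follicle cells. The follicle cells make ecdysteroid hormones and the eggshell, and oocytes take up yolk and lipid carrier proteins made in the fat body.

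No value per ant was available, so neither the spread between ants nor the overlap of groups is given, and the depth of each library is unknown. Levels below are group means recovered from the deposited means and ratios, in normalized counts on the scale of the control comparison. The SE of each deposited ratio was recovered from its p-value. For the ratio after knockdown the SE given is an upper bound, the root of the summed squares of the 2 knockdown SEs (median 0.22 on the log2 scale). A gene was called at an adjusted p under 0.05 in a z test with this bound, over the 8242 genes that have a p-value in all 3 comparisons. The germline marker vas had 7919 in Kr-h1 workers and 6749 in Kr-h1 gamergates, against 8195 in control workers and 6164 in control gamergates. The follicle cell marker tj had 636 in Kr-h1 workers and 1123 in Kr-h1 gamergates, against 702 in control workers and 1302 in control gamergates, so RNA of both ovarian cell kinds was present in every group.

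Kr-h1 itself (LOC112589664) was below the minimum mean, with 34.4 in Kr-h1 workers and 44.7 in Kr-h1 gamergates, against 47.8 in control workers and 37.3 in control gamergates. Its log2 caste ratio was -0.38 after knockdown (SE at most 0.85), and the authors' deposited table has 0.36 (adjusted p = 0.625, DESeq2) in controls. In that table the log2 ratio of Kr-h1 siRNA over control siRNA was -0.48 in workers (adjusted p = 0.706, DESeq2) and 0.26 in gamergates (adjusted p = 0.734, DESeq2). The mean of the group labelled Kr-h1 gamergates thus lay above that of control gamergates, against the label, and a lower level was not called in workers either. The 2 groups are named by their siRNA, and "after knockdown" means after injection of Kr-h1 siRNA. At these counts a caste difference of Kr-h1 was not detectable in either state.

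After injection of Kr-h1 siRNA, worker and gamergate ovaries still differed in many genes, and mostly in the direction seen in controls, by smaller ratios. Called after knockdown were 1664 genes, or 20.2% of those tested. Of them 882 were higher in Kr-h1 workers (10.7% of genes tested) and 782 higher in Kr-h1 gamergates (9.49%). In the authors' deposited table, 4598 of the same genes (55.8%) were called in controls by DESeq2, 2192 of them higher in control workers (26.6%) and 2406 higher in control gamergates (29.2%). These counts are not alike in power, because the bound widens the SE after knockdown. With an SE taken from the difference of the deposited variances (median 0.16, against 0.15 for the control ratio), 1812 genes were called higher in Kr-h1 workers and 1515 higher in Kr-h1 gamergates. The split between castes also rests on the scaling: on the scale of the 2 knockdown comparisons alone, all ratios lie 0.14 lower, and 465 genes (5.64%) were called higher in workers and 1264 (15.3%) in gamergates. Counts per gene list below are to be read against these shares. This second scale is called the knockdown scale below. On it the mean of each caste keeps the scaling of its own comparison, so worker and gamergate libraries were not scaled together. Calls lost on it show how far they depend on a near-constant shift of the ratios. Medians on it are not on the scale of the control ratios.

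Sizes need no test of that kind. The SD of the log2 caste ratio over all 8313 genes was 0.77 after knockdown and 1.02 in controls, and the median size was 0.31 and 0.40. At least 2-fold apart after knockdown were 777 genes (9.35%), 282 of them higher in workers (3.39%) and 495 higher in gamergates (5.95%). In controls these were 1485 (17.9%), with 766 (9.21%) and 719 (8.65%) on the worker and gamergate side. The count of worker-high genes lay further from its control value than that of gamergate-high genes. With the squared SEs subtracted, over genes that have them, the SD was 0.96 in controls. After knockdown it was 0.71 with the SE from the difference of variances and 0.68 with the upper bound.

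The 2 caste ratios share no library, so genes chosen in one can be read in the other. Of the 2192 genes called higher in control workers, 1948 (88.9%) had a positive ratio after knockdown, and 719 of them were called. Of the 2406 called higher in control gamergates, 2063 (85.7%) had a negative ratio after knockdown, and 725 were called. None of the genes called in both states had opposite directions. For the control-called genes the median ratio after knockdown was 0.45 for the worker-high and -0.35 for the gamergate-high genes, against control medians of 0.72 and -0.66, which the choice itself widens. Chosen the other way, the 782 genes called higher in Kr-h1 gamergates had a median of -0.97 after knockdown and -1.09 in controls. The 882 genes called higher in Kr-h1 workers had 0.71 and 0.61. Over all genes Pearson's r between the 2 ratios was 0.75 and Spearman's rho 0.70 (n = 8313 genes, which are not independent). The slope of the ratio after knockdown on the control ratio was 0.57, and that of the control ratio on the ratio after knockdown 1.001.

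**Figure D1:**
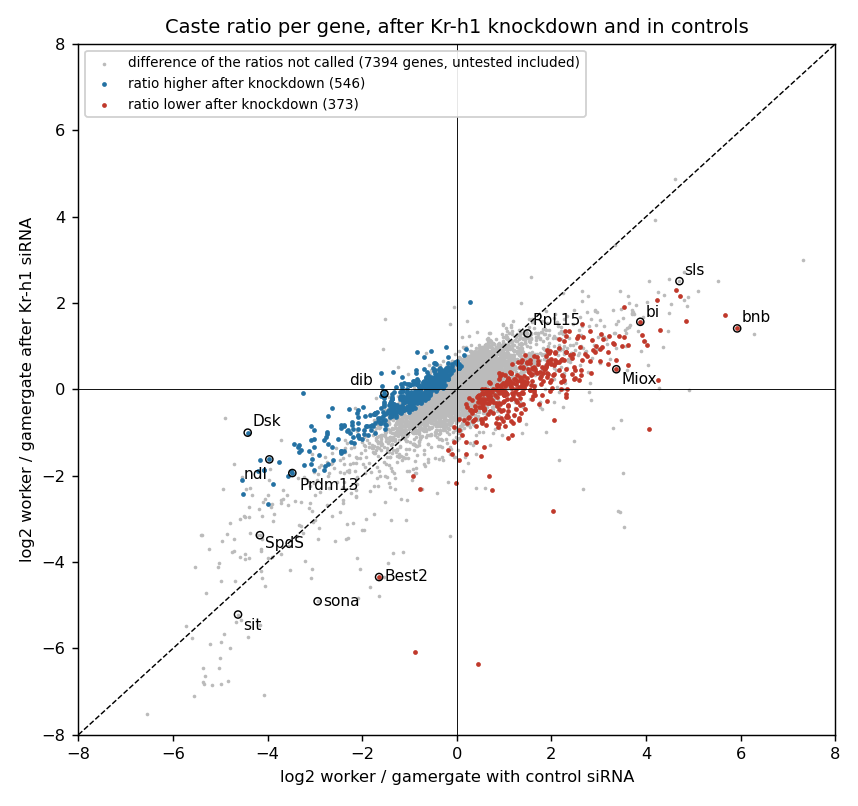
Log2 worker over gamergate ratio of each of the 8313 genes after Kr-h1 siRNA (y axis) against the same ratio with control siRNA (x axis). Blue and red points are the 546 and 373 genes whose ratio was called higher or lower after knockdown, grey points all others; the dashed line marks equal ratios. Most points on the worker-high side lie below the dashed line; bnb and Dsk lie far from it and sit, SpdS and RpL15 near it.

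Among genes with a symbol, the largest called ratios after knockdown belonged to gamergate-high genes whose worker level was low in both states. The symbol sit (LOC105190303) had 65.5 in Kr-h1 workers and 2431 in Kr-h1 gamergates, against 106 in control workers and 2624 in control gamergates. Its log2 ratio of -5.21 (SE at most 1.20, adjusted p = 4.92e-04, z test) was the most negative of the called genes with a symbol. The secreted metalloprotease gene sona (LOC105191228) had 45.3 in Kr-h1 workers and 1359 in Kr-h1 gamergates, against 139.8 in control workers and 1074 in control gamergates, a ratio of -4.91 (SE at most 0.86, adjusted p = 3.08e-06, z test). Both genes were thus high in gamergates with either siRNA.

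Other genes of this kind encode enzymes, transporters and signals. Best2, of the bestrophin chloride channel family, had 20.7 in Kr-h1 workers and 420.1 in Kr-h1 gamergates, against 105 in control workers and 328 in control gamergates. Its ratio of -4.35 (SE at most 0.90, adjusted p = 8.83e-05, z test) was further from 0 than in controls, where the authors' deposited table has -1.64 (adjusted p = 7.83e-04, DESeq2). The acid phosphatase gene Acph-1 had 63.3 in Kr-h1 workers and 989 in Kr-h1 gamergates, against 165 in control workers and 1526 in control gamergates, and its ratio was -3.97 (SE at most 0.46, adjusted p = 5.18e-14, z test). The spermidine synthase gene SpdS had 183 in Kr-h1 workers and 1905 in Kr-h1 gamergates (ratio -3.38, adjusted p = 2.21e-05, z test). The remaining 5 of the 10 most negative genes were ChLD3 (-3.32), Ptr (-2.89), which is related to the hedgehog receptor patched, the TGF-beta family ligand mav (-2.81), the ABC transporter snu (-2.63) and scaf (-2.56). Each of these was also called higher in control gamergates by the authors' deposited table.

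Worker-high genes after knockdown showed smaller ratios, and several encode ribosomal or muscle proteins. The titin-family gene sls (LOC105184337) had 3181 in Kr-h1 workers and 559.7 in Kr-h1 gamergates, against 7439 in control workers and 285 in control gamergates, and its ratio was 2.51 (SE at most 0.87, adjusted p = 0.0256, z test). The T-box transcription factor gene bi (LOC105185675) had 244 in Kr-h1 workers and 82.6 in Kr-h1 gamergates, against 482 in control workers and 32.8 in control gamergates, a ratio of 1.57 (SE at most 0.49, adjusted p = 0.0129, z test). RIC-3, a chaperone of nicotinic acetylcholine receptors, had 821 in Kr-h1 workers and 317 in Kr-h1 gamergates, against 974 in control workers and 265 in control gamergates. Its ratio was 1.37 (SE at most 0.32, adjusted p = 5.62e-04, z test). The others among the 10 most positive genes were the mitochondrial ribosomal gene mRpL13 (1.35), the synaptotagmin gene Syt4 (1.34), the elongation factor gene Ef-1a-f1 (1.32), RpL37-1 (1.30), slow (1.30), RpL15 (1.30) and RpL27 (1.29). All of these were called higher in control workers too, as the authors' deposited table shows. Syt4 has the weakest call of the 10 (adjusted p = 0.0429, z test), and it was lost on the knockdown scale.

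**Figure D2:**
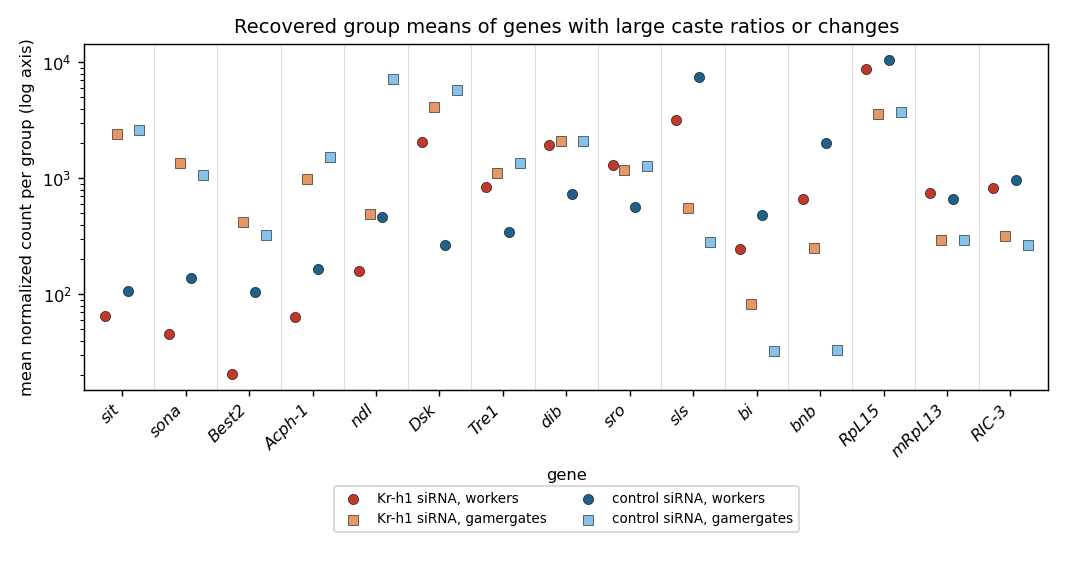
Recovered mean normalized count (log axis) of 15 genes in Kr-h1 workers, Kr-h1 gamergates, control workers and control gamergates, 1 point per group and no error because no value per ant was available. For dib and sro the points of Kr-h1 workers lie with both gamergate groups and the point of control workers lies below them; for RpL15, mRpL13 and RIC-3 workers lie above gamergates with either siRNA.

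The caste ratio itself differed between the 2 states for 919 genes (11.2% of those tested), in a z test of the ratio after knockdown minus the control ratio. It was called higher after knockdown for 546 (6.62%) and lower for 373 (4.53%). Over all 8313 genes, 4582 differences were positive and 3731 negative. Counts of differences per gene list below are to be read against these numbers. The difference equals the worker minus the gamergate knockdown response. Because the control ratio is subtracted in it, a choice of large differences favours genes whose control ratio has the opposite sign. The median size of a called difference was 0.91 on the log2 scale.

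Dsk and ndl, both gamergate-high in controls, had the largest positive differences among named genes. Dsk (LOC105183918), which encodes the sulfakinin neuropeptide precursor, had 2038 in Kr-h1 workers and 4082 in Kr-h1 gamergates, against 268 in control workers and 5736 in control gamergates. Its ratio was -1.002 (SE at most 0.90, adjusted p = 0.451, z test), against -4.42 (adjusted p = 1.59e-43, DESeq2) in controls in the authors' deposited table. The difference of 3.42 (adjusted p = 0.00532, z test) goes with the higher level in Kr-h1 workers. Tre1, a receptor known in fly for germ cell migration, had 836 in Kr-h1 workers and 1115 in Kr-h1 gamergates, against 344 in control workers and 1352 in control gamergates, and a difference of 1.56 (adjusted p = 1.84e-05, z test). The other named genes with large positive differences were Hr3 (1.67), the zinc-finger gene Prdm13 (1.54), sel (1.44), dib (1.43) and tan (1.34), an enzyme of the dopamine and pigment pathway. Of these, Prdm13 and ndl were still called higher in Kr-h1 gamergates.

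The largest negative differences belonged mostly to genes that were worker-high in controls, which the choice by difference itself favours. The gene bnb (LOC105189268) had 666 in Kr-h1 workers and 250.2 in Kr-h1 gamergates, against 2007 in control workers and 33.0 in control gamergates. Its ratio was 1.41 (SE at most 1.11, adjusted p = 0.383, z test), against 5.93 (adjusted p = 8.98e-17, DESeq2) in controls in the authors' deposited table. The inositol oxygenase gene Miox had 912 in Kr-h1 workers and 660.2 in Kr-h1 gamergates, against 2351 in control workers and 227 in control gamergates, so that its difference was -2.91 (adjusted p = 6.96e-06, z test). The teneurin gene Ten-m had 629 in Kr-h1 workers and 460.3 in Kr-h1 gamergates, against 1457 in control workers and 235 in control gamergates, and a difference of -2.18 (adjusted p = 8.88e-06, z test). Further genes were pot (-2.45), whose fly counterpart joins epidermis to cuticle, Tpx-4 (-2.32), bi (-2.31), Best2 (-2.70) and the midline transcription factor gene sim (-2.15). Of these 8 genes, bi was called higher in Kr-h1 workers, Best2 and sim were called higher in Kr-h1 gamergates, and the other 5 were not called after knockdown. For sim the control ratio was -0.011 in the authors' deposited table, so its difference goes with near-equal control levels. The calls of the differences of Best2 and sim were lost with a running median over mean count subtracted.

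**Figure D3:**
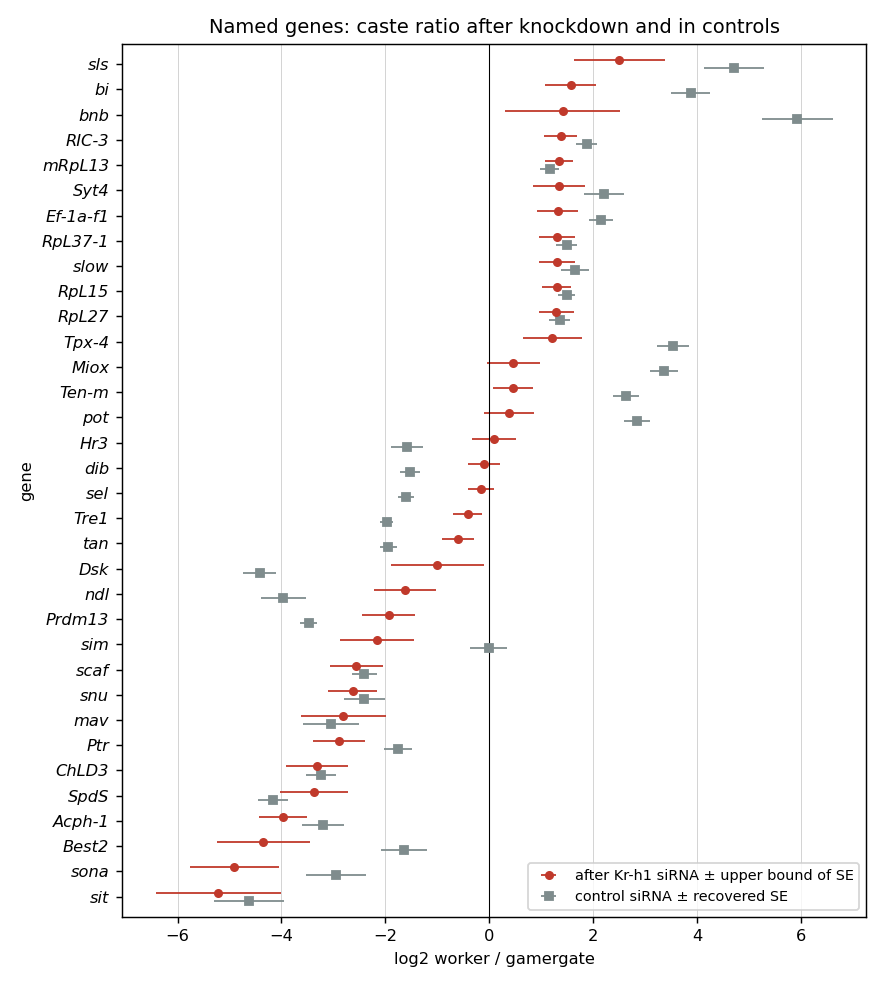
Log2 worker over gamergate ratio of the genes named for the largest ratios after knockdown or the largest differences between states, after Kr-h1 siRNA (red, with the upper bound of the SE) and with control siRNA (grey, with the recovered SE). For sit, ChLD3, snu, scaf and RpL15 the red and grey points lie close together, while for bnb, Miox, pot, dib, Tre1 and Dsk the red point lies nearer to 0.

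The eggshell genes ndl and tsl were gamergate-high after knockdown too, at lower levels in both castes. The serine protease gene ndl (nudel), which acts in the fly eggshell, had 159 in Kr-h1 workers and 490.4 in Kr-h1 gamergates, against 460.3 in control workers and 7178 in control gamergates. Its ratio was -1.62 (SE at most 0.60, adjusted p = 0.0365, z test), and the difference from the control ratio 2.34 (adjusted p = 0.00376, z test). The gene tsl (torso-like), which marks the ends of the fly eggshell, had 277 in Kr-h1 workers and 933 in Kr-h1 gamergates, against 613 in control workers and 1656 in control gamergates, a ratio of -1.75 (SE at most 0.61, adjusted p = 0.0253, z test). Of 4 tested genes of the list, ndl and tsl were called higher in Kr-h1 gamergates, and none in Kr-h1 workers (0 there also at an unadjusted p under 0.05). The median ratio of all 6 members was -1.40 after knockdown and -1.49 in controls, beside 0.022 and -0.015 over all genes. For wbl, an endoplasmic reticulum protein that fly follicle cells need, the ratio was -0.18 after knockdown and -1.36 in controls in the authors' deposited table (difference 1.18, adjusted p = 0.00287, z test).

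Neither yellow-g nor yellow-g2, eggshell members of the yellow family, could be tested, because a p-value is missing in the deposited table. DESeq2 can withhold a p-value where a single library has an extreme count, so their levels may rest on a single ant, which was not tested. The level of yellow-g was 10.4 in Kr-h1 workers and 23.5 in Kr-h1 gamergates, against 335 in control workers and 4379 in control gamergates. That of yellow-g2 was 1.29 in Kr-h1 workers and 25.99 in Kr-h1 gamergates, against 108 in control workers and 314 in control gamergates. With levels this low after knockdown, their ratios of -1.18 and -4.34 rest on few reads, and reads shared between members of the family would make them uncertain.

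Of 34 tested genes of the follicle cell patterning list, 5 were called higher in Kr-h1 gamergates and none in Kr-h1 workers by the z test (1 at an unadjusted p under 0.05), where 9.49% and 10.7% of all genes were called. The list had 8 and 0 calls on the knockdown scale. In the authors' deposited table, 7 and 14 were called higher in control gamergates and control workers. The BMP ligand gene gbb had 68.3 in Kr-h1 workers and 339 in Kr-h1 gamergates, against 211 in control workers and 360.4 in control gamergates. Its ratio was -2.31 (SE at most 0.48, adjusted p = 8.62e-05, z test) and its difference -1.54 (adjusted p = 0.0214, z test). The other 4 called genes, named after their values were seen, were the cadherin genes Cad99C (-1.88) and shg (-0.81), the apical polarity gene crb (-1.06) and the JAK kinase gene hop (-0.75). The transcription factor gene mirr and the adhesion gene Fas2, worker-high in controls, had differences of -1.66 (adjusted p = 4.10e-04, z test) and -1.23 (adjusted p = 6.03e-04, z test). Over the list, 30 of 35 differences were negative, 5 of them called, with a median of -0.38, beside 0.054 over all genes. Summed levels of the 9 matched follicle cell markers were 4468 in Kr-h1 workers and 6927 in Kr-h1 gamergates, against 4537 in control workers and 18620.5 in control gamergates, and their part in these results was not tested. The eggshell genes ndl and yellow-g, whose levels are given above, carry most of that contrast. Without them the other 7 markers summed to 4298 in Kr-h1 workers and 6414 in Kr-h1 gamergates, against 3742 in control workers and 7063 in control gamergates. Less RNA per cell and fewer cells of a kind cannot be told apart in whole ovaries.

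Among genes of ecdysteroid synthesis, a caste difference was not called after knockdown for dib and sro and was called for shd and nvd. The P450 gene dib (disembodied) had 1956 in Kr-h1 workers and 2094 in Kr-h1 gamergates, against 728 in control workers and 2103 in control gamergates, so that its ratio was -0.10 after knockdown, a difference of 1.43 (adjusted p = 5.14e-04, z test). The dehydrogenase gene sro (shroud) had 1292 in Kr-h1 workers and 1182 in Kr-h1 gamergates, against 562 in control workers and 1276 in control gamergates, a ratio of 0.13 and a difference of 1.31 (adjusted p = 8.60e-04, z test). Kr-h1 workers thus stood near both gamergate groups for these 2 genes. The P450 gene shd (shade), which makes the active hormone, had 559 in Kr-h1 workers and 2470.4 in Kr-h1 gamergates, against 533 in control workers and 3079.6 in control gamergates. Its ratio stayed at -2.14 (SE at most 0.46, adjusted p = 1.67e-04, z test). Gamergates also stood above workers for nvd (neverland), an oxygenase of the first step in fly, with 159 in Kr-h1 workers and 782 in Kr-h1 gamergates, against 304 in control workers and 748 in control gamergates, and a ratio of -2.30 (SE at most 0.71, adjusted p = 0.0111, z test).

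Of the genes of the hormone response, Hr3, Hr4 and Eip93F were close to even between the castes after knockdown. The nuclear receptor gene Hr3 had 84.2 in Kr-h1 workers and 79.3 in Kr-h1 gamergates, against 94.0 in control workers and 282 in control gamergates, a ratio of 0.086 and a difference of 1.67 (adjusted p = 0.00376, z test). Hr4 had 372 in Kr-h1 workers and 391 in Kr-h1 gamergates, against 309 in control workers and 707 in control gamergates, and a difference of 1.12 (adjusted p = 0.00347, z test). For Hr3 and Hr4 the gamergate level was the one that was lower with Kr-h1 siRNA. Eip93F, a factor of the ecdysone response, had 2314 in Kr-h1 workers and 2468 in Kr-h1 gamergates, against 4410.4 in control workers and 1666 in control gamergates, and a difference of -1.50 (adjusted p = 0.0417, z test). The ecdysone receptor partner usp was called higher in Kr-h1 workers (ratio 0.49, adjusted p = 0.0457, z test), a call lost on the knockdown scale and with the median subtracted, while the receptor Ecr had a ratio of -0.29 that was not called. In all, 3 of 22 tested genes of the juvenile hormone and ecdysone list were called after knockdown (1 higher in workers, 2 in gamergates, or 0 and 4 on the knockdown scale), against 17 in controls (7 and 10) in the authors' deposited table. Hr4, Eip93F, nvd, usp and Ecr were named after their values were seen. The list's differences were called positive for 4 genes (dib, sro, Hr3 and Hr4) and negative for 1 (Eip93F).

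Of 28 tested germline genes, 2 were called higher in Kr-h1 workers and 6 in Kr-h1 gamergates. On the knockdown scale these counts were 0 and 9, so that both worker calls, orb and zuc, were lost, and in controls 10 and 9 were called by the authors' deposited table. The piRNA pathway genes qin and papi had ratios of -0.997 (SE at most 0.19, adjusted p = 1.14e-05, z test) and -1.06 (SE at most 0.27, adjusted p = 0.00192, z test). Other called genes of that pathway were armi (-0.62) and vret (-0.58), higher in Kr-h1 gamergates, and zuc (0.77), higher in Kr-h1 workers. The translation regulator orb was called higher in Kr-h1 workers (0.77), and the RNA transport gene egl and the translation repressor me31B were called higher in Kr-h1 gamergates (-0.48 and -0.69). Summed levels of the 6 matched germline markers were 37963 in Kr-h1 workers and 37879.6 in Kr-h1 gamergates, against 31618 in control workers and 36529 in control gamergates. The largest part of each sum is exu, with 18074.5 in Kr-h1 workers and 22531.6 in Kr-h1 gamergates, against 11904.3 in control workers and 23221.7 in control gamergates. Of the other markers, orb, vas and BicD were higher in workers in both states, and egl and AGO3 higher in gamergates. The list median was -0.04 after knockdown and -0.055 in controls. Only Tre1 and pch2 (positive) and hts (negative) had called differences, and the genes armi, vret, zuc, orb, egl, me31B, pch2 and hts were named after their values were seen.

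Of 21 tested yolk and lipid genes, 3 were called higher in Kr-h1 gamergates and 1 in Kr-h1 workers, near the shares of 9.49% and 10.7% over all genes (list median -0.18, 0.0081 in controls). The endocytosis genes Past1 and AP-2alpha had ratios of -1.58 (adjusted p = 0.0307, z test) and -0.81 (adjusted p = 3.38e-04, z test), and the megalin gene mgl, named after its value was seen, -1.49 (adjusted p = 0.0325, z test). The clathrin light chain gene Clc was the one higher in workers (0.60, adjusted p = 0.006, z test). The yolk protein receptor gene yl had 7902 in Kr-h1 workers and 10823 in Kr-h1 gamergates, against 5004 in control workers and 10504 in control gamergates. Its ratio of -0.45 after knockdown was not called (adjusted p = 0.388, z test), whereas the authors' deposited table has a control ratio of -1.07 (adjusted p = 3.06e-04, DESeq2). No difference was called in this list by the z test, with 0 positive and 2 negative at an unadjusted p under 0.05.

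Genes of the cytosolic ribosome were higher in workers in both states, as a block. Of 57, 51 were called higher in Kr-h1 workers and none in Kr-h1 gamergates (0 also at an unadjusted p under 0.05), and 53 were called higher in control workers in the authors' deposited table. The median ratio was 0.96 after knockdown and 0.97 in controls, with ranges of 0.35 to 1.30 and -0.11 to 1.71. RpL15 had 8764 in Kr-h1 workers and 3567 in Kr-h1 gamergates, against 10544 in control workers and 3744 in control gamergates, a ratio of 1.30 (SE at most 0.27, adjusted p = 1.09e-04, z test). RpS9 and RpL26 had ratios of 1.21 and 1.11. No difference between the states was called in the list by the z test, and 2 were positive at an unadjusted p under 0.05. With a running median over mean count subtracted, 32 of the 57 were called higher in Kr-h1 workers. Near-identical copies of ribosomal genes may share reads, and their part in the result was not tested.

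Mitochondrial ribosome and respiratory chain genes had higher median worker over gamergate ratios after knockdown than in controls. Of 70 mitochondrial ribosomal genes, 24 were called higher in Kr-h1 workers and none in Kr-h1 gamergates by the z test (0 at an unadjusted p under 0.05), against 13 and 14 in the controls of the authors' deposited table. Their median ratio was 0.41 after knockdown and -0.036 in controls. The difference was positive for 68 of the 70 and called for 10, all positive, or for 5 with a running median over mean count subtracted. On the knockdown scale, 12 of the 70 stayed called, with a median of 0.27. The gene mRpL13 had 754 in Kr-h1 workers and 296 in Kr-h1 gamergates, against 664 in control workers and 295 in control gamergates, a ratio of 1.35 (SE at most 0.27, adjusted p = 4.54e-05, z test). For mRpL42 and mRpL49 it was 0.98 and 1.02.

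Of 49 respiratory chain genes, 25 were called higher in Kr-h1 workers and none in Kr-h1 gamergates by the z test (0 at an unadjusted p under 0.05), against 20 and 1 in controls in the authors' deposited table. The median was 0.52 after knockdown and 0.18 in controls, and 45 of 49 differences were positive, 2 of them called. Over all tested genes, 6.62% were called with a positive difference. The complex III gene UQCR-6.4 had 1468 in Kr-h1 workers and 642 in Kr-h1 gamergates, against 1347 in control workers and 656 in control gamergates, a ratio of 1.19 (SE at most 0.28, adjusted p = 5.43e-04, z test). The complex IV gene COX7C and the complex I gene ND-ASHI had ratios of 0.90 and 0.79. On the knockdown scale, 14 of the 49 were called.

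Other genes of protein synthesis and turnover had smaller medians. All 119 genes of the wider translation list, mitochondrial ribosomal genes included, had a median of 0.32 after knockdown and -0.02 in controls, with 32 called higher in Kr-h1 workers and 3 in Kr-h1 gamergates, or 16 and 3 on the knockdown scale. Within it, 30 initiation factor genes had 8 and 2 calls (4 and 2 on the knockdown scale, median 0.18), and 17 aminoacyl-tRNA synthetase genes had 0 and 1 (median 0.044, or -0.094 on the knockdown scale). Of 35 proteasome genes, 6 were called higher in Kr-h1 workers and 1 in Kr-h1 gamergates, and 34 of 35 differences were positive, 4 of them called. With a running median over mean count subtracted, none of these 4 proteasome differences was called and 5 ratios were called higher in workers and 2 in gamergates. The split of called ratios turned on the knockdown scale, to 2 higher in workers and 3 in gamergates. Uch-L5, Rpn12 and Prosalpha2 had ratios of 0.67 (adjusted p = 7.84e-04, z test), 0.63 (adjusted p = 0.00154, z test) and 0.56 (adjusted p = 0.0154, z test), the last of which lost its call on the knockdown scale. Of 29 chaperone genes, 5 were called higher in Kr-h1 workers and 1 in Kr-h1 gamergates, but 2 and 2 on the knockdown scale and 4 and 5 with a running median over mean count subtracted. Named genes were Cdc37 (0.77) and the prefoldin subunit Pfdn4 (0.72), higher in Kr-h1 workers. The endoplasmic reticulum chaperone gene Gp93 had 26694 in Kr-h1 workers and 38871 in Kr-h1 gamergates, against 14511 in control workers and 47903 in control gamergates, a difference of 1.18 (adjusted p = 0.00295, z test).

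**Figure D4:**
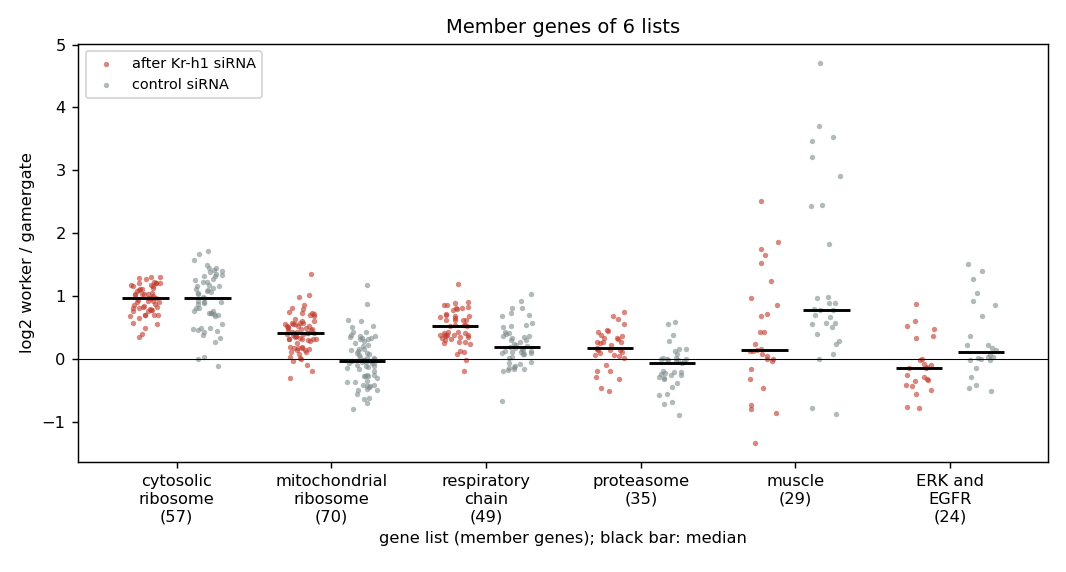
Log2 worker over gamergate ratio of each member gene of 6 lists after Kr-h1 siRNA (red) and with control siRNA (grey), with black bars at the medians. The cytosolic ribosome has nearly the same median in both states (0.96 and 0.97), mitochondrial ribosome and respiratory chain lie higher after knockdown, and muscle genes lie lower, with fewer values above 2.

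In the other signalling lists, called differences between the states were mostly negative. In the ERK and EGFR list, 22 of 24 differences were negative and 4 were called, all negative (median -0.32). Over all genes, 3731 of 8313 differences were negative, and 4.53% of those tested were called negative. The feedback inhibitor gene sty (sprouty) had 223 in Kr-h1 workers and 314 in Kr-h1 gamergates, against 342 in control workers and 179.6 in control gamergates, a difference of -1.42 (adjusted p = 0.00532, z test). The ERK phosphatase gene Mkp3 had 372 in Kr-h1 workers and 296 in Kr-h1 gamergates, against 515 in control workers and 213 in control gamergates, a difference of -0.95 (adjusted p = 0.00519, z test). The ETS factor gene pnt, a nuclear effector of ERK, had a difference of -1.03 (adjusted p = 0.0191, z test). After knockdown 2 genes of this list were called higher in each caste, gro (0.87) and Rap1 (0.60) in workers and Egfr (-0.77) and rg (-0.55) in gamergates. On the knockdown scale the counts were 1 in workers and 4 in gamergates, and Rap1 was not called. The receptor gene Egfr had 448 in Kr-h1 workers and 764 in Kr-h1 gamergates, against 512 in control workers and 516 in control gamergates, and its difference of -0.76 (adjusted p = 0.0611, z test) did not pass. pnt, Rap1, Egfr and rg were named after their values were seen.

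In the insulin and TOR list, 3 of 35 genes were called higher in each caste after knockdown, or 0 in workers and 5 in gamergates on the knockdown scale, against 6 in workers and 8 in gamergates among controls in the authors' deposited table. The amino acid transporter gene slif was called higher in Kr-h1 gamergates (-1.17, adjusted p = 0.0028, z test) and the TORC2 subunit gene Sin1 in Kr-h1 workers (0.62, adjusted p = 0.0162, z test). The calls of Sin1 and of Thor, described next, were lost on the knockdown scale. The stress-induced TOR inhibitor gene Sesn had 1183 in Kr-h1 workers and 1547 in Kr-h1 gamergates, against 1696 in control workers and 942 in control gamergates, a difference of -1.24 (adjusted p = 0.00247, z test). Thor, the 4E-BP translation repressor, had 7296 in Kr-h1 workers and 4862 in Kr-h1 gamergates, against 5229 in control workers and 5199 in control gamergates, and its ratio was 0.59 (adjusted p = 0.0203, z test), named after its value was seen. Its difference of 0.58 (adjusted p = 0.036, z test) was the 1 called positive in this list, beside 2 called negative. That call was lost with the median or a running median subtracted. The list's medians were -0.10 after knockdown and 0.085 in controls. Of 40 tested genes of the JAK-STAT, BMP, Wnt, Notch and Hedgehog list, 4 were called higher in Kr-h1 gamergates and none in Kr-h1 workers by the z test, where 3 were at an unadjusted p under 0.05 (7 and 0 calls on the knockdown scale, median -0.17). The Wnt receptor gene fz2 and the activin receptor gene babo had differences of -1.39 (adjusted p = 0.00117, z test) and -1.12 (adjusted p = 0.00347, z test), and all 5 called differences of the list were negative.

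Summed markers of muscle and of fat body were highest in control workers. The 13 matched muscle markers, all analysed, summed to 21674 in Kr-h1 workers and 14063 in Kr-h1 gamergates, against 36355 in control workers and 12265 in control gamergates. The 8 matched fat body markers, 3 of them above the minimum mean, summed to 11624 and 7355 in Kr-h1 workers and gamergates, against 21954 and 3746 in control workers and gamergates. Haemocyte markers (4 matched) summed to 1893 and 3347 in Kr-h1 workers and gamergates, against 2849.8 and 3374 in control workers and gamergates. Trachea and cuticle markers (7 matched) had 592 and 2009.8, against 1103 and 2581, and gut markers (2 matched) 160.1 and 310.0, against 113 and 359.9, in the same order of groups. No matched marker of these lists was at 0 in any group. Marker by marker, 12 of 13 muscle and 5 of 8 fat body markers were highest in control workers. The fat body sum is mostly apolpp and Tsf1, and serp is the largest part of the trachea and cuticle sum in each group. Tsf1 has no p-value in the worker knockdown and control comparisons. Its level, and with it the fat body sum, may rest on a single ant of a group, which was not tested. The worker over gamergate ratios of the muscle and fat body sums were smaller after knockdown. The same held for the median of the genes called higher in control workers, whose control ratio the choice widens. It did not hold for the cytosolic ribosome genes, with medians of 0.96 after knockdown and 0.97 in controls. The haemocyte, trachea and cuticle, and gut sums were highest in control gamergates. The part of all these sums in the results was not tested.

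Within the muscle list of 29 genes, 20 were called higher in control workers in the authors' deposited table, while 1 was called higher in Kr-h1 workers (sls) and 2 in Kr-h1 gamergates (Fhos and SERCA, -0.80 and -0.87). The difference was negative for 25 of 29 and called for 9, all negative (median -0.71). The myosin heavy chain gene Mhc had 1253 in Kr-h1 workers and 689 in Kr-h1 gamergates, against 3031 in control workers and 402 in control gamergates, a difference of -2.05 (adjusted p = 0.0415, z test). Lmpt, mys (an integrin) and Msp300 (a nesprin) had differences of -1.71 (adjusted p = 0.00303, z test), -0.96 (adjusted p = 0.012, z test) and -0.92 (adjusted p = 0.0114, z test). The list median was 0.14 after knockdown, or -0.0025 on the knockdown scale, and 0.78 in controls. Fhos, SERCA and Mhc were named after their values were seen.

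In the fat body list none of the 9 tested genes was called after knockdown by the z test, in either caste (on the knockdown scale Tsf2 was, higher in Kr-h1 gamergates), and 1 was higher in Kr-h1 gamergates at an unadjusted p under 0.05. The lipid carrier gene apolpp had 3993 in Kr-h1 workers and 2621 in Kr-h1 gamergates, against 8252 in control workers and 1009 in control gamergates. Its ratio was 0.61 (SE at most 1.08, adjusted p = 0.734, z test), and its difference of -2.42 (adjusted p = 0.115, z test) did not pass either. Tret1, a trehalose transporter, had 1872 in Kr-h1 workers and 1351 in Kr-h1 gamergates, against 5278 in control workers and 510.2 in control gamergates, and a difference of -2.90 (adjusted p = 0.0566, z test). Tsf2, the third named gene, had a ratio of -0.43 (adjusted p = 0.104, z test). Of 12 haemocyte genes, 2 were called higher in Kr-h1 gamergates and 3 differences were called, all negative. The growth factor receptor gene Pvr had 373 in Kr-h1 workers and 1435 in Kr-h1 gamergates, against 713 in control workers and 1789 in control gamergates, a ratio of -1.94 (SE at most 0.35, adjusted p = 4.30e-06, z test). The matrix peroxidase gene Pxn and the transcription factor gene zfh1 had differences of -1.41 (adjusted p = 0.012, z test) and -1.18 (adjusted p = 0.00291, z test). The call for Pxn was lost with a running median over mean count subtracted.

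Of 32 tested nerve genes, 3 were called higher in Kr-h1 workers and 1 in Kr-h1 gamergates, and on the knockdown scale 1 and 3 (median 0.017, or -0.14 on the knockdown scale). The active zone gene brp had 223 in Kr-h1 workers and 846 in Kr-h1 gamergates, against 178 in control workers and 868 in control gamergates, a ratio of -1.92 (SE at most 0.38, adjusted p = 3.51e-05, z test). Snap25, a protein of vesicle fusion, had 932 in Kr-h1 workers and 748 in Kr-h1 gamergates, against 1537 in control workers and 576 in control gamergates, and a difference of -1.10 (adjusted p = 0.00448, z test). The summed level of the 12 matched nerve markers was 6088 in Kr-h1 workers and 5369 in Kr-h1 gamergates, against 5947 in control workers and 4208 in control gamergates. The largest part of each sum is cac, with 3715 in Kr-h1 workers and 2540 in Kr-h1 gamergates, against 2598 in control workers and 1831 in control gamergates. Of the others, para, Snap25, Syt1, nAChRalpha1 and nAChRalpha2 were higher in Kr-h1 workers. In Kr-h1 gamergates, brp, nSyb, ChAT, Gad1, VGlut and Rdl were higher. Of 4 neuropeptide and receptor genes none was called after knockdown by the z test, with 1 higher in Kr-h1 workers at an unadjusted p under 0.05. Dsk and Dh31-R had called differences (3.42 and -0.94, the second lost with a running median over mean count subtracted), and ITP had a ratio of -0.42.

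The yellow-family gene Y-e3 and the chitin deacetylase gene serp had ratios of -2.55 (SE at most 0.62, adjusted p = 9.14e-04, z test) and -2.39 (SE at most 0.46, adjusted p = 2.24e-05, z test), the 2 calls among 14 tested cuticle and trachea genes. In the ion channel and transport list, 6 of 30 genes were called higher in Kr-h1 gamergates and 1 in Kr-h1 workers, or 11 and 0 on the knockdown scale (median -0.38). The sodium and proton exchanger gene Nhe3 and the zinc transporter gene Zip48C had ratios of -0.86 (adjusted p = 5.55e-04, z test) and -0.90 (adjusted p = 0.00112, z test). Of 20 tested immune genes, 1 was called higher in Kr-h1 workers and 2 in Kr-h1 gamergates, or 0 and 4 on the knockdown scale. All 5 called differences in that list were negative, among them the receptor gene Tl (Toll, -0.77, adjusted p = 0.00688, z test) and the Jun gene Jra (-1.87, adjusted p = 1.11e-04, z test). For Jra the levels were 368 in Kr-h1 workers and 662 in Kr-h1 gamergates, against 873 in control workers and 430.4 in control gamergates. The chemosensory and detoxification list had 1 call in each caste among 14, CSP6 in Kr-h1 gamergates (-2.54, adjusted p = 0.00274, z test) and Sod1 in Kr-h1 workers (0.67, adjusted p = 0.00221, z test), a call lost with a running median over mean count subtracted. No gut gene of 4 was called after knockdown, none was at an unadjusted p under 0.05, and cad, bbg and LManII had ratios of -0.53, -0.38 and 0.0098.

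Of 69 cell cycle genes, 3 were called higher in Kr-h1 workers and 4 in Kr-h1 gamergates, or 2 and 11 on the knockdown scale, against 11 and 29 in controls in the authors' deposited table. The mitotic genes fzy, Cdk1 and Klp3A had ratios of -1.16 (adjusted p = 3.38e-04, z test), -0.85 (adjusted p = 3.45e-04, z test) and -0.84 (adjusted p = 0.00279, z test). The list median was -0.051 after knockdown and -0.23 in controls. Of 31 chromatin genes, 5 were called higher in Kr-h1 workers and 2 in Kr-h1 gamergates, or 3 and 3 on the knockdown scale, and no difference between the states was called by the z test, with 4 positive and 3 negative at an unadjusted p under 0.05. The histone demethylase gene Utx had 2129 in Kr-h1 workers and 5856 in Kr-h1 gamergates, against 2395 in control workers and 5815 in control gamergates, a ratio of -1.46 (SE at most 0.35, adjusted p = 7.81e-04, z test). Its counterpart E(z), the methyltransferase of the same mark, had a ratio of 0.57 (adjusted p = 0.00571, z test), and the remodeler gene Mi-2 0.72 (adjusted p = 0.00509, z test). Among 12 genes of the RNA interference list, Dcr-2 (-0.60, adjusted p = 0.00934, z test) and the exportin gene Ranbp21 (-0.74, adjusted p = 0.0107, z test) were called higher in Kr-h1 gamergates, and SIDL had a ratio of -0.51. On the knockdown scale, 6 of the 12 were called higher in Kr-h1 gamergates, SIDL among them.

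**Figure D5:**
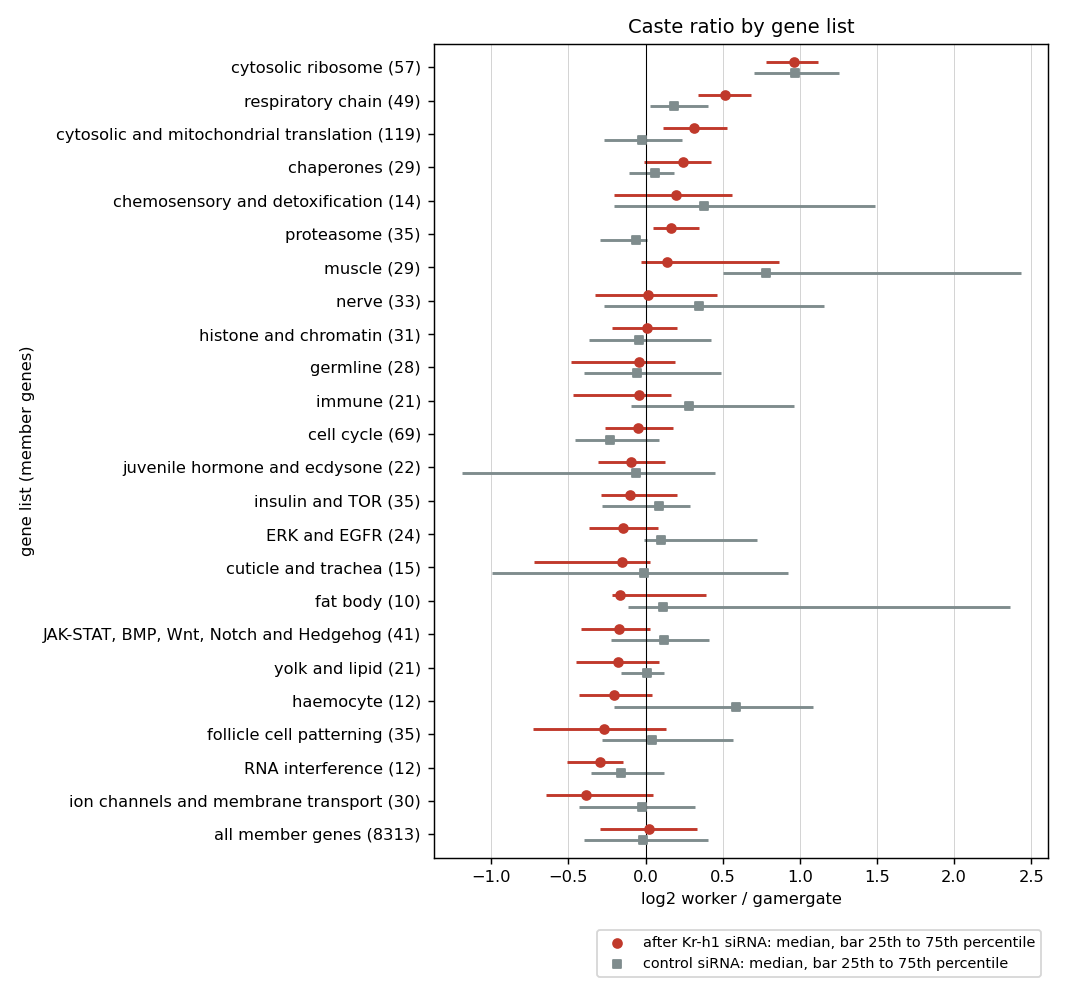
Median log2 worker over gamergate ratio of the lists with at least 9 member genes, after Kr-h1 siRNA (red circles) and with control siRNA (grey squares), with bars from the 25th to the 75th percentile and the number of genes in brackets. The cytosolic ribosome lies near 1 in both states, and the wide control bars of muscle and fat body genes are shorter after knockdown.

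The control caste ratio depended on abundance, and the ratio after knockdown did so less at low counts. For the 318 genes with a control mean of 50 to 100, the median ratio was 0.04 after knockdown and 0.39 in controls. For the 2757 genes with a mean of 1000 to 3000, it was 0.0027 and -0.10. The SD was smaller after knockdown in each of the 5 abundance classes, for example 0.63 and 0.75 in the lowest and 1.31 and 1.62 in the highest. At the edge of the minimum mean of 50, the symbol-bearing genes just inside were CarT (lowest mean 50.3, ratio -0.09 after knockdown and 0.33 in controls) and alpha-Catr (51.1, -0.15 and 0.62). Just outside were Hao (49.8, 0.41 and 2.15) and Phyhd1 (49.4, -2.58 and -2.87). Control ratios of these 4 genes are those of the authors' deposited table.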

How the data were processed

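The labels put 22 ovary libraries of 1 ant each into 4 groups by caste and siRNA. Per the submitters' processing notes, bcl2fastq, STAR, featureCounts and DESeq2 were used; no version, build or annotation was given in the sources used here. The deposited table holds, for 3 comparisons, the authors' mean normalized count (under no fixed unit), log2 ratio, p-value and adjusted p-value. It has no values per ant, so the planned leave-one-out and paired fits could not be made, depth is unknown, and p-values measure the spread between ants only through the authors' fits. Dividing a log2 ratio by the normal quantile for its p-value gave the SE; the p-values are taken as those of Wald tests. Recomputed from the 2 knockdown comparisons alone, the ratio after knockdown differed by 0.14 (SD 0.0061 over genes), so each comparison had its own scaling and the control groups cancel. z tests were adjusted by Benjamini-Hochberg over 8242 genes. The recovery of SEs and the z tests were also run on simulated data with normal errors and equal variance per ant in all 4 groups. That run could not check unequal variances, extreme counts or the Wald assumption in the real data. Symbols came from RefSeq (Hsal_v8.6), where 13681 IDs matched; many are names of insect counterparts. Members, 26 gene lists (which overlap) and tests were chosen with earlier results of these data known. Named were the 10 most positive and 10 most negative called ratios, the 8 largest called differences each way and up to 3 genes per list with the smallest adjusted p; others are marked as chosen after their values were seen. Alternatives used other SEs, scalings and minimum means. Work was done in Python 3.11.15 with pandas 2.3.3 and scipy 1.17.1.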

Additional observations from a re-analysis of the deposited data

Results flagged for a closer look

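The response to Kr-h1 siRNA differed between workers and gamergates, so that the caste ratio after knockdown differed from that in controls, for 919 genes by the z test (adjusted p under 0.05). Among the genes named by rule, 36 are of this kind. The values here are differences of the log2 worker over gamergate ratio, after knockdown minus control, and a negative value means a lower ratio after knockdown.

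Negative differences belonged to bnb (-4.51), Miox (-2.91), Best2 (-2.70), pot (-2.45), Tpx-4 (-2.32), bi (-2.31), Ten-m (-2.18) and sim (-2.15). Among signalling and transcription genes they were Jra (-1.87), mirr (-1.66), gbb (-1.54), sty (-1.42), fz2 (-1.39), Sesn (-1.24), zfh1 (-1.18), babo (-1.12), Mkp3 (-0.95), Dh31-R (-0.94) and Tl (-0.77). Among muscle, adhesion, matrix and nerve genes they were Lmpt (-1.71), Pxn (-1.41), Fas2 (-1.23), Snap25 (-1.10), mys (-0.96) and Msp300 (-0.92).

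Positive differences belonged to Dsk (3.42), ndl (2.34), Hr3 (1.67), Tre1 (1.56), Prdm13 (1.54), sel (1.44), dib (1.43), tan (1.34), sro (1.31), Gp93 (1.18) and wbl (1.18). All 11 were called higher in control gamergates in the authors' deposited table, which the choice by difference itself favours.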

How the results depend on the processing

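No paired analysis was possible because the deposited table holds no values per ant, and leaving out single ants was not run for the same reason. With the SE from the difference of variances, 3327 genes were called after knockdown in place of 1664. With a minimum mean of 200, 369 genes in place of 777 were at least 2-fold apart after knockdown, among fewer genes. The slope on the control ratio, 0.57 as reported, was 0.52 with that minimum, 0.66 with none and 0.63 after correction for the SE of the control ratio, an alternative chosen after seeing the data. The scaling moved the split of calls. Of the 1664 called ratios 53.0% were positive, against 26.9% of 1729 on the scale of the knockdown comparisons alone. Of the 919 called differences 59.4% were positive, against 45.7% of 860 with the median and 46.8% of 748 with a running median subtracted; 600 of the 919 were still called then. For single named genes, 1114 results under an alternative kept direction and call, 15 gained a call, 9 lost one and 16 changed sign. Other minimum means and the other SE leave each ratio as it is, so direction could not change under them. Of the 1114, the minimum means of 20, 200 and none gave 200, 154 and 200. All 9 losses and all 16 sign changes came under another scaling. Each of the 16 was uncalled in that alternative, and the cause was not tested. The ratios after knockdown of LManII (-0.13), sro (-0.0058), mirr (-0.031), Hr3 (-0.060) and mys (-0.14) turned negative on the scale of the knockdown comparisons alone, and those of LManII (-0.012) and mys (-0.022) with the median subtracted. With a running median subtracted, that of Tl was 0.0015. The differences of Cdc37 (-0.015) and Sod1 (-0.021) turned negative with the median subtracted. With a running median subtracted those of Cdc37 (-0.095), Uch-L5 (-0.0037), Nhe3 (-0.030), Sod1 (-0.027), AP-2alpha (-0.044) and Sin1 (0.062) changed sign. Among the genes named by rule, calls lost with a running median subtracted were the differences of Pxn, sim, Dh31-R and Best2 and the ratios of Syt4 and Sod1. Among others in the text, they included the difference of Thor and the ratios of Thor, orb and Rap1. On the scale of the knockdown comparisons alone, calls lost among the genes named by rule were the ratios of Prosalpha2, Syt4 and Sin1. Among others in the text they were those of zuc, orb, usp, Thor and Rap1. Counts per list on other scales were added after seeing the data.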

Other observations

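Of the 71 genes above the minimum mean without a p-value in at least 1 comparison, 14 have a symbol, and several had large control levels in workers. The cuticle protein gene CPR14 had 813 in Kr-h1 workers and 789 in Kr-h1 gamergates, against 6135 in control workers and 316 in control gamergates. B-gluc1, named as a beta-glucosidase, had 1893 in Kr-h1 workers and 389.9 in Kr-h1 gamergates, against 7775 in control workers and 228 in control gamergates. The transporter gene Mdr49 had 50.6 in Kr-h1 workers and 83.1 in Kr-h1 gamergates, against 419.9 in control workers and 38.1 in control gamergates. For these 3 genes control workers held the highest level of the 4 groups, and after knockdown the log2 caste ratios were 0.042, 2.28 and -0.72, with no test.

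The iron carrier gene Tsf1, a fat body marker, had 5767 in Kr-h1 workers and 2996 in Kr-h1 gamergates, against 11827 in control workers and 1505 in control gamergates, and Pgrp-s2, named as a peptidoglycan recognition protein, had 3110.4 in Kr-h1 workers and 1334 in Kr-h1 gamergates, against 7631 in control workers and 884 in control gamergates. The gene sff differed the other way, with 53.9 in Kr-h1 workers and 513 in Kr-h1 gamergates, against 58.9 in control workers and 231 in control gamergates. The cytokine receptor gene dome had 711 in Kr-h1 workers and 1669 in Kr-h1 gamergates, against 1717 in control workers and 1413 in control gamergates, so that its ratio was -1.23 after knockdown and 0.28 in controls in the authors' deposited table. Further values after knockdown were 0.49 for Achl, -0.89 for Alas, 0.15 for Syt1, -0.39 for Tbc1d8-9 and 0.60 for sev.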
